A study of Mus musculus with 96 samples.

Results

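The intact C57Bl/6J chromosome 4 was examined from 1 anchor, the PE-4Cseq viewpoint labelled 150.4 Mb, in cells whose other copy of chromosome 4 lacks that place and in cells that have both copies. The libraries were chosen by their labels alone, as those of the 150.4 Mb viewpoint assigned to the C57Bl/6J allele, which gave 4 of the 96 samples in the series. The question was whether the contacts made by a normal chromosome differ when the matching segment of its homologue is gone.

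All cells were mouse embryonic fibroblasts (MEFs), cultured connective tissue cells taken here from embryos at day 13.5 and used at passage 4. They were F1 hybrids of 129S5/SvEvBrd and C57BL/6J. A base that differs between the strains thus tells which copy of the chromosome a read came from. The lines with the deletion were bred from male chimeras that carried the engineered 129S5 chromosomes and C57BL/6J females. For the undeleted lines the paper names F1 crosses of these strains as controls, without details of the parents. In lines 129S5E71 and 129S5E98 (below, E71 and E98) the 129S5 copy carries an engineered deletion in band 4E2 and is called Df, and the intact C57BL/6J copy of the same nuclei is called +DBl6. Lines 129S5E117 and 129S5E118 (E117 and E118) are undeleted, with a 129S5 copy called +129 and a C57BL/6J copy called +Bl6. Each line is a separate culture of embryo fibroblasts, and each group has 2 lines, which is the only replication. The comparison of +DBl6 with +Bl6 is one of intact chromosomes with the same sequence in different cells, and the +129 libraries of the control lines were used as a second undeleted reference. A line differs from the others in everything that varies between embryos, which cannot be told apart from the deletion with 2 lines per group, also where both lines lie on the same side.

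In 4C methods, chromatin is fixed, cut with a restriction enzyme and ligated, so that fragments lying close together in the nucleus are joined, and the partners of 1 chosen fragment are amplified and sequenced. Contacts are most frequent next to the viewpoint, fall with distance along the chromosome, and rise again where chromatin of the same kind, usually gene-rich and active, comes together. In PE-4Cseq the viewpoint end of each read pair also covers a strain polymorphism, and the profile is thereby split by allele. A read count here is a count of amplified ligation products, with no molecular identifiers, so the intervals and limits given for single libraries cover counting error only.

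The viewpoint was located from its primers on the NCBIM37 (mm9) sequence. Both primers lie on a HindIII fragment of 643 bp at chr4:150429104-150429746, in an intron of Vamp3 (ENSMUSG00000028955, minus strand, chr4:150421409-150432072), which encodes a vesicle membrane protein of the SNARE family. The fragment named for this viewpoint, chr4:150429747-150433314 with 3568 bp, is the neighbour across the HindIII site on the telomere side, and it collected 7.42%, 8.01%, 5.38% and 7.50% of the reads in E71, E98, E117 and E118. The piece between the HindIII site and the nearest DpnII site is 285 bp long, overlaps no exon or untranslated region, and is shown with the DpnII site, the polymorphic base and the HindIII site in capitals. Its polymorphism is A142T at chr4:150429603, counted from 1 at the 5′ end of the piece, with the C57BL/6J base first and the 129S5 base last. The allele primer reads back towards that base on the minus strand and the capture primer reads out across the HindIII site.

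Viewpoint piece, chr4:150429462-150429746, plus strand: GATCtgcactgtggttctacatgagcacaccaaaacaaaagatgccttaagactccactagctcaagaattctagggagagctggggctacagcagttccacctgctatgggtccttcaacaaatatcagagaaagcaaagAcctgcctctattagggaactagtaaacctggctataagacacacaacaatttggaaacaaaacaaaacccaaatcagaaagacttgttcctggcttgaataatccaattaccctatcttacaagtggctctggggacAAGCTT
Allele primer, chr4:150429618-150429643, minus strand: gtcttatagccaggtttactagttcc
Capture primer, chr4:150429714-150429735, plus strand: ccctatcttacaagtggctctg

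The interval missing from Df was located from the loss of Df reads at the viewpoints outside it, and not from any library of the 150.4 Mb viewpoint. It spans chr4:150083826-154411694, or 4.33 Mb with 1108 HindIII fragments and 48 protein-coding genes. The viewpoint lies 346 kb inside its centromere-side boundary and 3.98 Mb from its telomere-side boundary, with 5.2 Mb left to the end of the chromosome. Going towards the telomere, the next gene is Camta1, a calmodulin-binding transcription activator whose last exon lies 3.89 kb away and whose promoter end is at position 151235985. On the centromere side lie Per3, a gene of the circadian clock, then Uts2, which encodes a vasoactive peptide, Tnfrsf9, a costimulatory receptor of T cells, Park7, which protects cells from oxidative stress, and Errfi1, a feedback inhibitor of the epidermal growth factor receptor.

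The allele assignment followed the labels. Reads assigned to 129S5 made up 48.8% and 49.9% of the viewpoint's reads in E117 and E118, and 0.283% and 0.355% in E71 and E98, where no 129S5 copy of the viewpoint exists. Library depth was uneven: the chromosome 4 reads numbered 888917 in +DBl6 E71, 2087874 in +DBl6 E98, 374583 in +Bl6 E117 and 1045259 in +Bl6 E118. The E71 library stood apart in having the fewest captured fragments, 2993 against 6926 in E98, 5751 in E117 and 8112 in E118. Outside a zone of 20 kb on each side of the viewpoint, which was left out of every share below, each captured fragment had 219 and 207 reads in E71 and E98, against 49.9 and 98.1 in E117 and E118. Reads per captured fragment thus differed between the groups, and their part in the differences below was not tested. The pooled PCR products of E71 and E117 were purified on columns and those of E98 and E118 with beads, so that each purification method holds 1 line of each genotype. In each genotype the line purified on columns also had fewer reads and fewer captured fragments than the other. Purification method and depth therefore cannot be told apart within a genotype.

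The viewpoint's reads were more numerous in the interval around it than in either flank or the distant chromosome. The interval took 51.2% and 48.5% of the reads outside the zone in +DBl6 E71 and E98, and 47.8% and 49.2% in +Bl6 E117 and E118. The Wilson 95% intervals of these shares were narrow, from 51.1% to 51.3% in E71 and from 47.6% to 48.0% in E117, and the spread between lines was far larger than this counting error. The groups overlapped: E71 was the highest, but E98 was below E118. The means were 49.8% ± 1.90 for +DBl6 and 48.5% ± 0.988 for +Bl6 (SD, n = 2 each), a difference of 1.37 percentage points with p = 0.667 in a two-sided exact permutation test over libraries, in which 0.333 is the smallest p that 2 libraries against 2 can give. Without E71, the library that stood apart, the difference fell to 0.0264 points. With a zone of 10 kb in place of 20 kb it was 2.09 points, and both +DBl6 lines lay above both controls (p = 0.333, exact permutation test). In the +129 libraries the interval took 46.0% and 45.5%, below all 4 C57BL/6J libraries. Part of that gap lay in 4 interval fragments, described at the end, that were more than 4-fold lower in both +129 libraries.

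Of these 4 places, the 3 outside the interval were those in which both lines lay on the same side of the controls. In the 2 Mb before the interval, which hold Slc45a1, Rere and Eno1, the share was 7.59% and 8.58% in +DBl6 against 7.20% and 7.18% in +Bl6. From the interval end to the telomere, where Ski, Prkcz and Gnb1 lie, it was 2.88% and 3.30% against 2.32% and 2.76%. In the remainder of the chromosome, from its start to 2 Mb before the interval, it was 38.3% and 39.6% against 42.7% and 40.9%. Both flanks were higher, and the distant chromosome lower, in both deletion lines than in both control lines, by 0.894, 0.549 and −2.81 percentage points, each at the smallest p the design allows, 0.333 (exact permutation test, two-sided). Without E71 the differences were 1.39, 0.762 and −2.18 points, and without E98 they were 0.40, 0.336 and −3.45. The groups overlapped in all 3 places when captured fragments were counted in place of reads (p = 0.667 each, exact permutation test), and in both flanks when each fragment was capped at the 99th percentile (p = 1.00 upstream and 0.667 downstream, exact permutation test), with the direction of the means kept. The +129 libraries did not share 1 order with them: at 7.30% and 6.89% before the interval and 43.6% and 44.0% far upstream they lay on the +Bl6 side of +DBl6 or beyond it, but at 3.09% and 3.61% after the interval they lay with or above +DBl6.

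**Figure D1:**
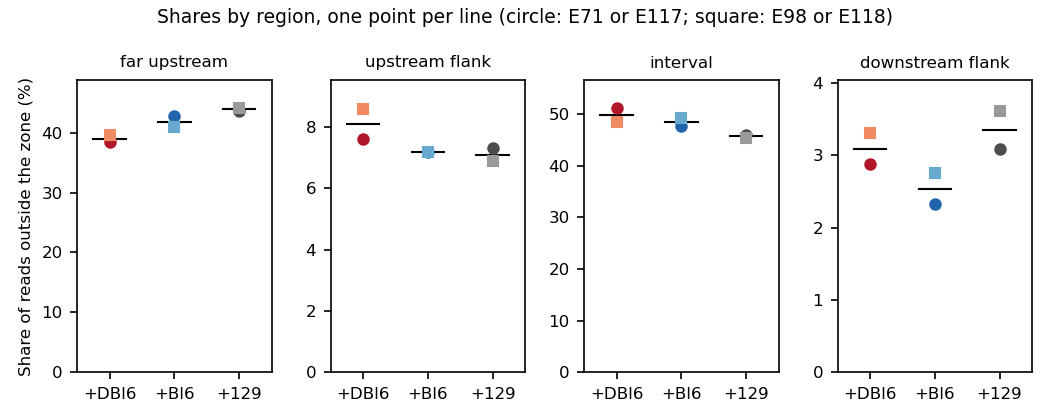
Shares of reads outside the 20 kb zone (%, vertical axes from 0) in 4 places of chromosome 4 for the 150.4 Mb viewpoint, with 1 point per line (circles E71 or E117, squares E98 or E118) and a bar at the group mean, n = 2. Both +DBl6 lines lie above both +Bl6 lines in the 2 flanks (7.59% and 8.58% against 7.20% and 7.18% upstream) and below them far upstream, while the groups overlap in the interval.

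Per length, contacts were concentrated in the interval and then in its flanks. The density, as reads scaled to a total of 1000000 outside the zone (RPM) per kb, was 119, 113, 111 and 115 in the interval for E71, E98, E117 and E118. It was 37.8, 42.8, 35.9 and 35.8 in the upstream flank, and 23.6, 27.1, 19.1 and 22.7 in the downstream flank. Far upstream it was between 2.59 and 2.88. The order of places, interval, upstream flank, downstream flank, far upstream, was the same in all 4 libraries.

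Inside the interval the reads were compared in 5 stretches. The first was the neighbourhood of the viewpoint, from the interval start to the viewpoint with 12.5%, 11.9%, 11.3% and 12.5% of the reads in E71, E98, E117 and E118. It continued on the other side over the body of Camta1 with 27.2%, 25.1%, 26.4% and 25.3%. The groups overlapped in both, and Camta1 alone thus held about as many reads as the rest of the interval together. From the promoter end of Camta1 on, in a gene-rich stretch at chr4:151235986-151899999 with Dnajc11, Phf13, Icmt, Rpl22 and Chd5, the share was 6.65%, 8.22%, 6.69% and 7.97%. There the lines paired by purification method, E71 with E117 and E98 with E118, and not by genotype.

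Contacts then fell to a minimum. The next stretch, chr4:151900000-153299999, in which Ajap1 lies, took 1.98%, 0.933%, 1.39% and 1.02% of the reads in E71, E98, E117 and E118. From there to the interval end, with Trp73, Megf6 and Prdm16, the share was 2.87% and 2.37% in +DBl6 against 2.02% and 2.35% in +Bl6. This last stretch was the only 1 of the 5 in which both deletion lines lay above both controls, and E98 exceeded E118 there by only 0.0246 percentage points. The +129 libraries, at 3.14% and 2.88%, were higher than all of them.

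**Figure D2:**
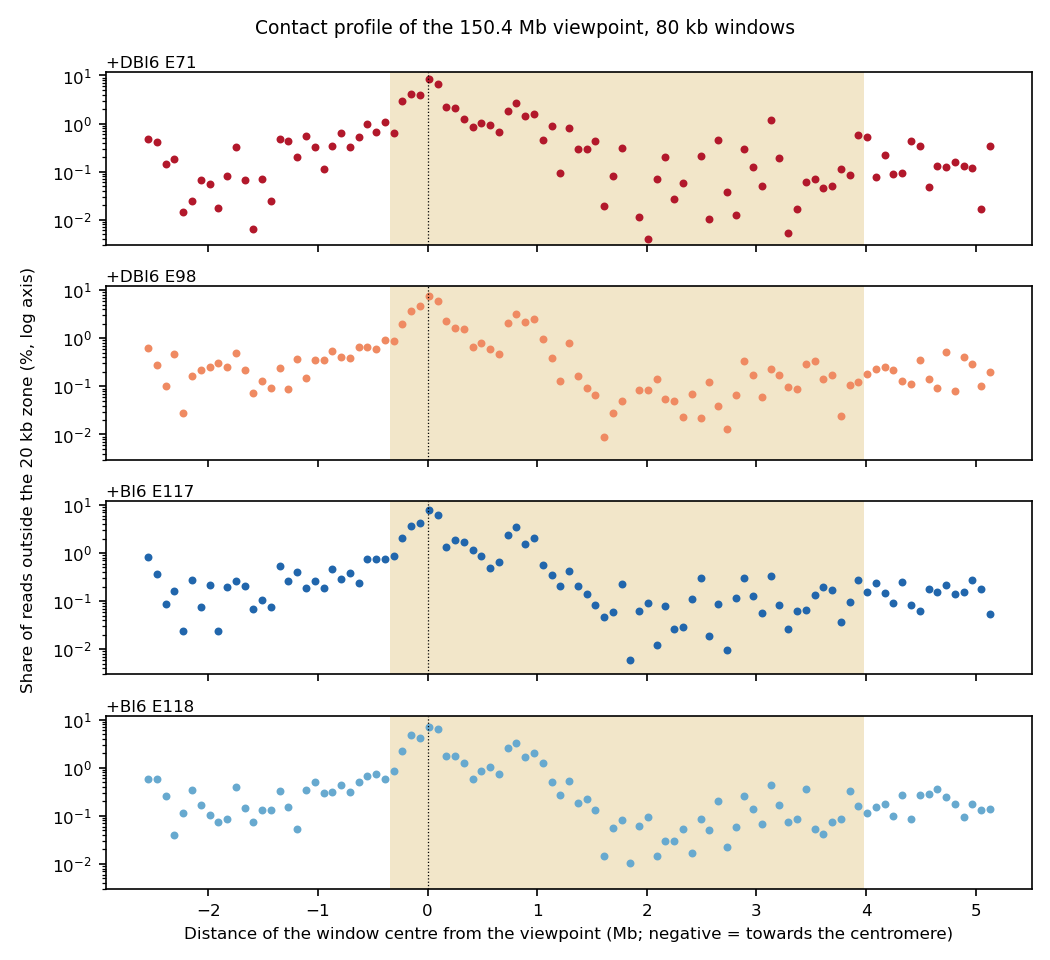
Share of reads outside the 20 kb zone (%, log axis) in each 80 kb window against the distance of the window centre from the viewpoint (Mb), with 1 panel for each of the 4 C57BL/6J libraries and the interval deleted on the other chromosome shaded; windows with almost no reads are not drawn. All 4 profiles fall from the viewpoint on both sides, rise again near the promoter end of Camta1 (the window at chr4:151200001-151280000 holds 2.67% to 3.55%), and stay low beyond, around Ajap1.

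The fall of contacts with distance was alike in the groups. The slope of log10 read density against log10 distance at 100 kb was −1.07 and −1.08 in +DBl6 and −1.07 and −1.02 in +Bl6. The groups did not overlap (p = 0.333, exact permutation test), but the difference of −0.03 was smaller than the gap between the control lines. In the +129 libraries the slope was −0.98 and −0.95, shallower than in the C57BL/6J libraries. Taken by side, it was shallower only towards the telomere, at −0.96 and −0.92 against −0.99 to −1.10. Towards the centromere it was −0.84 and −0.82, within the C57BL/6J range of −0.80 to −0.86. The sides were unequal, with more reads towards the telomere than towards the centromere. Between 20 kb and 1 Mb, the log2 ratio of centromere-side to telomere-side reads was −0.85 and −0.87 in +DBl6 and −1.03 and −0.86 in +Bl6. Here the groups overlapped, and their difference of 0.09 had p = 0.667 in the exact permutation test.

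**Figure D3:**
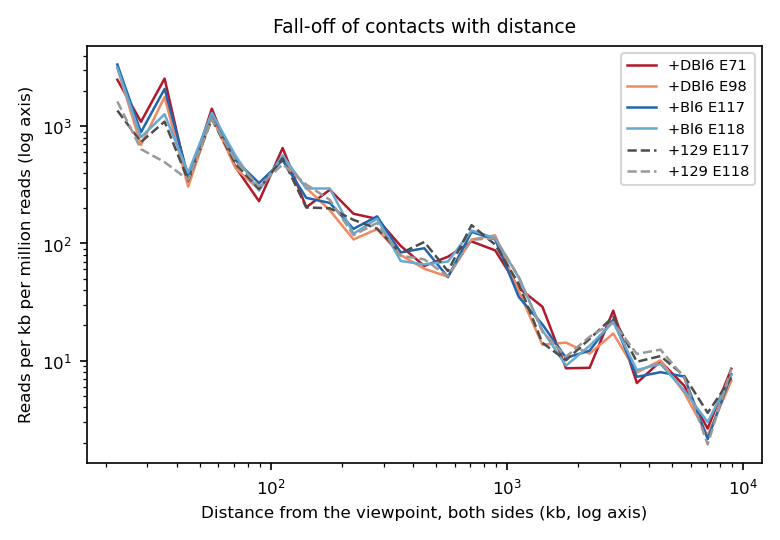
Read density (RPM per kb, log axis) against distance from the viewpoint with both sides combined (kb, log axis), with 1 line per library. The C57BL/6J curves run close together. The +129 curves lie lower at 22.4 kb (1360 and 1626 against 2492 to 3362) and at 35.5 kb (1094 and 494 against 1267 to 2549). All curves have a second rise between about 0.7 and 0.9 Mb, where the density in the C57BL/6J libraries is between 87.4 and 129.

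Single fragments showed what the regional shares are made of. The highest fragment outside the zone over the 4 libraries, of 825 bp at chr4:150454427-150455251 in Camta1, had 7322 and 14996 RPM in E71 and E98, and 8925 and 15205 in E117 and E118. Its neighbour of 585 bp at chr4:150455252-150455836 had 18865, 7726, 11042 and 7336 in the same order. The fragment of 1465 bp at chr4:150483795-150485259 had 9189, 9927, 13659 and 11560. The first fragment was lower, and its neighbour higher, in E71 and E117, whose libraries were purified on columns, than in E98 and E118, which were purified with beads. At this scale 2 adjoining fragments under 1 kb in length thus moved in opposite directions between these pairs of lines, which differ in purification and in depth. The third fragment was lower in both deletion lines than in both controls. The ends of these fragments, which carry the aligned reads, are shown from the HindIII site inwards, with that site in capitals, to identify them.

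Left end of chr4:150454427-150455251, plus strand: AAGCTTagtttgaggaggctgaaggcaaac
Right end of chr4:150454427-150455251, minus strand: AAGCTTgaacctatagcacggtaactttct
Left end of chr4:150455252-150455836, plus strand: AAGCTTtgcacactggttccctagtgtgtg
Right end of chr4:150455252-150455836, minus strand: AAGCTTcatctaactgagatgtagtcttct
Left end of chr4:150483795-150485259, plus strand: AAGCTTgtgggagcatcatcaggactccac
Right end of chr4:150483795-150485259, minus strand: AAGCTTtctttttctccatgccagaaaagg

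The other leading fragments near the viewpoint lay in Per3 and Camta1. The fragment at chr4:150377984-150379240 in Per3 had 12375 and 12233 RPM in +DBl6 against 10292 and 7999 in +Bl6, higher in both deletion lines. Beyond 300 kb the leading fragment was at chr4:151366891-151367934 in Phf13, which encodes a chromatin-associated protein with a PHD finger. It had 4956 and 14925 in +DBl6 and 9200 and 8935 in +Bl6, so that the deletion lines lay on either side of the controls.

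The sampling of fragments set how finely the libraries could be compared. In the interval, 965 of 1095 fragments outside the zone were captured in at least 1 of the 4 libraries, and 460 of these, or 47.7%, were captured in all 4. Far upstream, 12701 of 46447 fragments were captured in any library, 263 or 2.07% of these in all 4, and 65.6% in 1 library only. Across the 54 windows of 80 kb tested in the interval, the log counts of library pairs had Pearson correlations of 0.81 to 0.92, and across the windows outside it 0.28 to 0.35, which describe windows of shared sequence and not independent samples. Captured fragments of the interval thus recurred in all 4 libraries far more often than those of the distant chromosome. The correlations in the interval include the fall of contacts with distance that the libraries share, so they do not measure the repeatability of single windows. The lowest of them, 0.81, was that between the +DBl6 lines.

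No 80 kb window differed between +DBl6 and +Bl6 past the threshold. Of 1178 windows tested with edgeR's quasi-likelihood test, 0 (0%) had a Benjamini-Hochberg adjusted p under 0.05, 57 (4.84%) had an unadjusted p under 0.05, and the smallest adjusted p was 0.338. Of the 57, 7 lay in the interval and 4 in its flanks. DESeq2 called 44 (3.74%), of which 12 were higher and 32 lower in +DBl6. All 44 lay far upstream, and DESeq2 called 0 windows in the interval or its flanks. Between the undeleted +129 and +Bl6 chromosomes, p-values were adjusted over the windows of this viewpoint alone, and not over all 12 viewpoints as above. There edgeR called 0 of 1248 windows (0%), with 31 at an unadjusted p under 0.05, and DESeq2 called 4. Both chromosomes come from the same lines, and these tests leave that pairing out. With the line as a block, edgeR called 1 window, chr4:150400001-150480000 next to the viewpoint, lower in +129 (adjusted p 4.71e-07). That window contains the fragments chr4:150449637-150451560, chr4:150451561-150454426 and chr4:150462213-150467913. These are described at the end and were more than 4-fold lower in both +129 libraries. Whether the rest of the window differs was not tested.

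Windows in which both lines agreed were then counted without a test. After edgeR's TMM scaling, both +DBl6 libraries lay above both +Bl6 libraries in 153 windows (13%) and below them in 245 (20.8%), together 398 (33.8%). Between +129 and +Bl6 the groups did not overlap in 393 windows (31.5%), a like share. Libraries in random order would separate in a share of 0.333, so these totals do not measure a difference between groups. In the interval, 17 of 54 windows were above and 2 below, in the upstream flank 8 of 25 were above and 1 below, and in the downstream flank 7 of 16 were above and 2 below. With a gap of at least 2-fold between the nearest libraries, 225 windows (19.1%) remained on the chromosome, 2 of them in the interval and 0 in the flanks.

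The excess of higher windows in the interval depended on the scaling. The TMM factors were 0.813 and 0.958 for +DBl6 and 1.2 and 1.07 for +Bl6, which moved the median log2 difference of all windows from −0.29 under total reads to 0.03. Under total reads, +DBl6 was above in 114 windows (9.68%) and below in 270 (22.9%) of the chromosome. The interval then had 4 windows above and 5 below, and its median difference was 0.02 on the log2 scale, against 0.37 under TMM. The upstream flank had 3 above and 2 below with a median of 0.21, against 0.53, and the downstream flank 5 above and 4 below with a median of 0.20, against 0.50. Relative to the median of all windows, the interval was higher under both scalings, and in the far upstream windows the median was −0.43 under total reads and −0.09 under TMM.

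**Figure D4:**
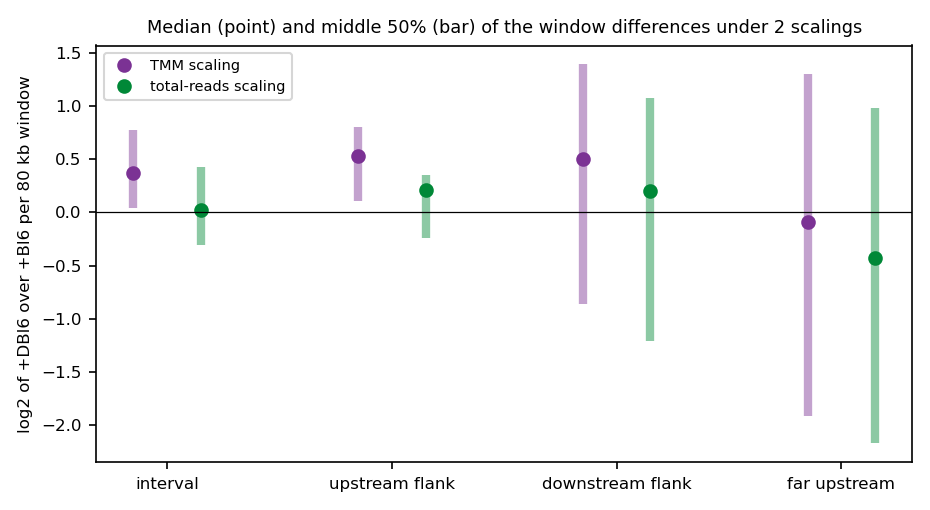
Log2 difference of +DBl6 over +Bl6 per 80 kb window (vertical axis) in 4 places of chromosome 4, as the median over windows (points) and the middle 50% of windows (bars), under TMM scaling and under scaling to the total reads outside the zone. The median of the interval is 0.37 under TMM and 0.02 under total reads, and that of the far upstream windows is below 0 under both.

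Over all 1178 windows tested, 114 (9.68%) were above and 245 (20.8%) below in both deletion lines under both scalings. Among the 54 windows of the interval, 4 (7.41%) were above and 2 (3.70%) below in this way. The highest of them, chr4:150560001-150640000 in the body of Camta1 and 170 kb from the viewpoint, took 2.22% and 2.25% of the reads in +DBl6 against 1.32% and 1.78% in +Bl6. The +129 libraries, with 1.60% and 2.15%, filled the range between. Its log2 difference was 0.88 ± 0.29 (SE, n = 2 lines per group) with an adjusted p of 0.724 in edgeR.

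The second, chr4:151680001-151760000, covers parts of Icmt, Rnf207, Rpl22 and Chd5, and took 0.828% and 0.804% in +DBl6 against 0.427% and 0.525% in +Bl6. The window just before it, chr4:151600001-151680000 with Acot7, Gpr153, Hes3 and the rest of Icmt, went the other way, with 0.0958% and 0.126% against 0.207% and 0.265%. Neighbouring windows thus had opposite orders, with log2 differences of 1.13 ± 0.52 and −0.75 ± 1.05 (SE, n = 2 lines per group; edgeR adjusted p 0.844 and 1.00). The +129 libraries had 0.237% and 0.786% in the former window and 0.259% and 0.264% in the latter, so that in the former they spanned both groups.

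The other 3 windows lay further along the interval. The window chr4:152480001-152560000, in the low stretch, took 0.0714% and 0.145% in +DBl6 against 0.0122% and 0.0146% in +Bl6, and 0.0727% and 0.0794% in +129. The 466, 2080, 35 and 116 reads behind the first 4 values made it 1 of the 2 windows of the interval with a gap above 2-fold. The window chr4:153600001-153680000 with Megf6 and Arhgef16 took 0.195% and 0.169% against 0.0830% and 0.164%, and 0.214% and 0.586% in +129. The window chr4:152240001-152320000 had 0 and 4 reads in +DBl6 and 17 and 83 in +Bl6. In that window +129 took 0.0809% and 0.118%, above the 0.00593% and 0.0104% of +Bl6. A count of 0 allowed up to 0.00046% of the reads in E71 and, where it occurs below, up to 0.000209% in E98.

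The highest windows differed little. Next to the viewpoint, chr4:150400001-150480000 with Per3, Vamp3 and the end of Camta1 took 8.64% and 7.62% in +DBl6, 8.02% and 7.07% in +Bl6, and 5.24% and 4.67% in +129. It had the smallest p of the windows that did not overlap after TMM scaling, 0.00107 before and 0.338 after adjustment (edgeR), for a log2 difference of 0.48 ± 0.13, but under total reads E98 lay below E117 and the groups overlapped. All 10 windows with the highest mean level lay in the interval. The 2 at the promoter end of Camta1, chr4:151120001-151200000 and chr4:151200001-151280000, took 1.85% and 2.10% against 2.34% and 2.59%, and 2.67% and 3.20% against 3.55% and 3.25%. Both were lower in both deletion lines under total reads. Under TMM the former overlapped and the latter was higher in both deletion lines, so its direction turned with the scaling.

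Outside the interval, the line-consistent windows with the smallest p rested on few fragments. The window chr4:99120001-99200000 had 2179 and 824 reads in +DBl6 against 5 and 67 in +Bl6, on 2 to 4 captured fragments per library. Lower in +DBl6 were chr4:102480001-102560000 in Sgip1, with 0 and 4 against 529 and 246 reads, chr4:96400001-96480000 in Gm12695, with 0 and 0 against 287 and 299, and chr4:53280001-53360000, with 0 and 0 against 368 and 57. Each of these was on at most 4 captured fragments in a library, and their edgeR adjusted p were between 0.352 and 0.806. All 4 were among the windows that DESeq2 called, with adjusted p between 0.00162 and 0.0169. In broader blocks, the reads from the chromosome start to 40 Mb were fewer in both deletion lines, with 1.94% and 2.15% against 2.62% and 2.41%. The same held for chr4:58000000-62999999, with 0.508% and 0.466% against 0.634% and 1.03%, and for chr4:143000000-147999999, with 4.22% and 4.02% against 4.73% and 4.49%. Of these blocks far upstream, only chr4:120000000-130999999 was higher in both deletion lines, with 8.54% and 7.24% against 6.91% and 6.60%. Counted as captured fragments in place of reads, the latter pair of blocks changed direction, with differences of 0.845 and −0.0348 percentage points.

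Counts were also summed over the fragments that overlap each protein-coding gene. Of 756 genes tested on the chromosome, edgeR called 0 (0%), with 26 at an unadjusted p under 0.05, all of them far upstream, and DESeq2 called 19, of which 0 lay in the interval or its flanks. Under TMM, both +DBl6 lines were above in 79 genes (10.4%) and below in 160 (21.2%), and under total reads in 70 (9.26%) and 175 (23.1%). Of the 48 genes of the interval 45 were tested, of which 10 were above and 6 below under TMM, and 6 above and 7 below under total reads. Among 17 genes of the interval listed for their known roles, 16 were tested and 0 called by edgeR, with 0 at an unadjusted p under 0.05. Of these 16, 5 were above and 1 below under TMM, and their median log2 difference was 0.28 against −0.14 over all genes tested. Under total reads 2 were above, Per3 and Chd5, and 2 below, Icmt and Trp73, with a median of 0.13 against −0.28. Vamp3 lies wholly inside the zone and has no value.

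On the centromere side of the viewpoint, Per3 was the gene with the clearest order. It had 732 and 721 RPM per kb in +DBl6 and 573 and 480 in +Bl6, with 624 and 492 in +129, and a log2 difference of 0.61 ± 0.30 (SE, n = 2 lines per group; edgeR adjusted p 0.990). The deletion lines lay above all 4 control profiles. Tnfrsf9, with 754, 742, 712 and 847 in E71, E98, E117 and E118, and Errfi1, with 744, 529, 568 and 757, overlapped. So did Park7, with 42.2, 139, 124 and 182, and Uts2, with 151, 269, 274 and 214, in which E71 was the lowest of the 4 libraries.

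On the telomere side, Camta1 had 346 and 319 RPM per kb in +DBl6 and 335 and 322 in +Bl6, and the groups overlapped. Under TMM its log2 difference was 0.16 ± 0.08 (SE, n = 2 lines per group; edgeR adjusted p 0.990), and with the purification method as a block it was the 1 gene called, with an adjusted p of 0.000356, as it was without E98 (adjusted p 0.000285). That call was not accompanied by a difference in its share of the reads, in which the lines overlapped. Dnajc11, which encodes a mitochondrial membrane protein, had 211, 318, 207 and 230 in the 4 libraries, and overlapped likewise.

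The genes around the second rise included 1 pair with opposite orders. Chd5, a chromatin remodeller, had 92.6 and 63.9 RPM per kb in +DBl6 against 38.9 and 34.7 in +Bl6, with 18.1 and 54.5 in +129. Icmt, which methylates prenylated proteins, had 59.6 and 27.4 against 73.2 and 71.4, with 102 and 84.9 in +129. These genes overlap the adjoining windows described above, and their adjusted p in edgeR was 0.990 each. Rpl22, a ribosomal protein gene between them, had 125, 87.9, 92.0 and 74.4, Kcnab2, a potassium channel subunit, had 30.7, 16, 20.4 and 19.5, and Nphp4, a gene of the primary cilium, had 32.8, 10.9, 15.7 and 26.9. All 3 overlapped under total reads.

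Far along the interval the levels were low. Ajap1, which encodes a protein of cell junctions, had 0.0905, 7.72, 0.913 and 1.36 RPM per kb in E71, E98, E117 and E118, with both the lowest and the highest value in the deletion lines. Trp73, of the p53 family, had 6.17 and 8.60 against 9.07 and 8.93, lower in both deletion lines under total reads but not under TMM. Megf6, with 95.6, 19.7, 28.1 and 32.0, and Prdm16, a regulator of brown fat, with 6.08, 29.5, 9.06 and 18.2, had the deletion lines on either side of the controls. Of the 5 other genes of the interval with the highest density, Gm13090, which lies within Camta1, had 2295 and 1553 against 1423 and 1390, and Dffb, which encodes a nuclease of apoptosis, had 180 and 136 against 127 and 104. Both were above in both lines under both scalings, and Phf13, Klhl21 and Nol9 overlapped. The Gm13090 values come from the fragment chr4:150462213-150467913 alone, which also counts for Camta1.

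Beside the interval, 1 listed gene on each side was higher in both deletion lines. Rere, a nuclear corepressor, had 78.0 and 70.0 RPM per kb in +DBl6 against 63.2 and 69.3 in +Bl6. Gnb1, a G protein subunit, had 47.1 and 32.0 against 6.24 and 29.6. In both, E98 exceeded E118 by little, and in Gnb1 the low value of E117 set the size of the gap. Eno1, a glycolytic enzyme, Slc45a1, a sugar transporter, and Ski and Prkcz overlapped, and Mtor, the growth-regulating kinase whose gene lies further upstream, had 46.0 and 58.3 against 83.0 and 61.0, lower under total reads only. edgeR called 0 of these 7 genes, with 0 at an unadjusted p under 0.05.

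The contacts were set beside those seen from the 11 other viewpoints of the same allele, which are separate libraries. From 150.4 Mb, the groups overlapped at 9 of the 11 and +DBl6 was above at 2. Seen back, they overlapped at 5, and +DBl6 was above at 2 (150.9 and 153.9 Mb) and below at 4 (148.9, 152.1, 152.4 and 153.4 Mb). The +DBl6 libraries at 150.9, 152.1 and 152.4 Mb shared most distant fragments, with read counts correlated at 0.94, 0.97 and 0.97. So did the +Bl6 libraries at 153.4 Mb, at 0.95. Each such pair counts as 1 sample, so these orders do not rest on 2 lines per group. At 153.9 Mb, +Bl6 E117 had 0 captured fragments within 50 kb of 150.4 Mb. The 2 places that separated from 150.4 Mb were those beyond the interval: the reads within 50 kb of the 154.9 Mb viewpoint made up 0.348% and 0.434% of the reads in +DBl6 against 0.106% and 0.310% in +Bl6, and those within 50 kb of the 155.5 Mb viewpoint made up 0.350% and 0.214% against 0.0768% and 0.142%. Seen back from 154.9 Mb, the neighbourhood of 150.4 Mb took 0.207% and 0.132% against 0.151% and 0.162%, and from 155.5 Mb 0.239% and 0.0922% against 0.266% and 0.137%, and in both the groups overlapped. The higher contact with the downstream flank was thus seen from the 150.4 Mb end, and not from the other.

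From the 150.9 Mb viewpoint in Camta1, the neighbourhood of 150.4 Mb took 4.11% and 4.32% in +DBl6 against 2.77% and 2.93% in +Bl6. The +DBl6 libraries of that viewpoint shared most of their distant fragments with read counts correlated at 0.94, and they count as 1 sample. From 150.4 Mb, the same contact took 1.27% and 0.856% in +DBl6 against 0.717% and 1.37% in +Bl6, and the groups overlapped. The libraries of the 150.4 Mb viewpoint did not share molecules in this way, with correlations between 0.08 and 0.37 over their shared distant fragments.

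The lines were finally regrouped by purification method, the recorded difference in handling. Among the 54 windows of the interval, under total reads, E98 and E118 were both above E71 and E117 in 10 and both below in 11, against 4 above and 5 below for +DBl6 over +Bl6. Among the 460 fragments of the interval captured in all 4 libraries, 154 separated by purification and 150 by genotype, of which the fragments lower in +DBl6 were 22.8% of the 460 and those higher 9.78%. Over all 1178 windows tested, 398 separated by purification and 384 by genotype. Grouping by purification method, with which depth also differs, thus separated about as many windows and fragments as the genotype did, and more windows of the interval. With 4 libraries in random order, either grouping would separate a share of 0.333 of the features. Over all windows and fragments the counts were near that share, so they do not measure an effect of either grouping. The deposited table of regions with differing contacts for this viewpoint lists 460 regions, 455 after joining, that together cover 19.1 Mb or 12.2% of the chromosome. It was derived from these libraries, so its directions are a description: reads were higher in the deletion line within both purification methods in 99 regions, lower within both in 122, and otherwise opposite, absent or equal. Of the 17 regions in the interval, 6 were higher and 2 lower within both.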

How the data were processed

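For each allele of 4 MEF lines, counts of reads on every HindIII fragment of chromosome 4 were deposited without scaling. Per the methods, the authors assigned read pairs to an allele by the polymorphism in the viewpoint read, trimmed the partner read, aligned it with Bowtie (version not given in the sources used here) to the ends of HindIII fragments of mm9, retained uniquely placed reads and added them up by fragment. Viewpoint reads of the 2 alleles were amplified together, and the pooled PCR products of E71 and E117 were purified on columns and those of E98 and E118 with beads, which was treated as a batch. The authors' deposited region tables list start and end positions (other values, without a unit). Sequences and genes are from the NCBIM37 (mm9) reference. The number of deposited columns that matched no sample was 0.

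The members, gene lists and tests were chosen with earlier results of these data known. The deleted interval was the stretch of lost Df reads at viewpoints 147.9, 148.9, 154.9 and 155.5 Mb. Reads within 20 kb of the viewpoint were left out, and shares are of the remaining chromosome 4 reads, with Wilson intervals at 95% confidence and a limit of 3 counts where no read was found. Shares, the side ratio and the slope of a spline with 4 degrees of freedom at 100 kb were compared by exact permutation tests over libraries. Counts in 80 kb windows and over protein-coding genes, with at least 10 reads in at least 2 libraries, were tested with edgeR 4.0.16 (R 4.3.3; TMM, quasi-likelihood), windows adjusted by Benjamini-Hochberg over all 12 viewpoints and genes over chromosome 4, and with DESeq2 1.42.0. Replicate pairs whose log reads at distant shared fragments correlated above 0.9 entered the joint table as 1 library; this applied to no pair of C57BL/6J libraries at 150.4 Mb. The scripts were tested on simulated counts. Depth was 374583 to 2087874 reads per library. p-values measure the spread between 2 lines per group. Named were the 10 windows with the highest mean level, the 3 line-consistent windows in each direction with the smallest p, interval windows consistent under both scalings, fixed genes inside and beside the interval, the 5 other interval genes of highest density, and the 5 leading fragments. Alternatives were captured fragments, capped fragments, minimum reads, other zones, scalings and filters, DESeq2, the batch as a block, and leaving out each library. Other viewpoints entered only as reciprocal contacts.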

Additional observations from a re-analysis of the deposited data

Results flagged for a closer look

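Reads assigned to the 129S5 allele were found in the deletion lines, whose 129S5 chromosome lacks the viewpoint. There were 2523 in E71 and 7432 in E98, against 356456 and 1041910 in the control lines E117 and E118, and they drew attention because no 129S5 viewpoint exists in those cells. They made up 0.283% of the viewpoint's reads in E71 (Wilson 95% interval 0.272% to 0.294%) and 0.355% in E98 (0.347% to 0.363%). Of the fragments that they captured, 98.8% in E71 and 78.3% in E98 were also captured in the C57BL/6J library of the same line, and these held 99.7% and 92.5% of the reads. Their share in the interval was close to that of +DBl6, with 51.3% and 48.2% against 51.2% and 48.5%. Far upstream it was 39.3% and 40.9% against 38.3% and 39.6%. The flanks were less alike, with 7.20% and 7.24% against 7.59% and 8.58% upstream, and 2.26% and 3.71% against 2.88% and 3.30% downstream. The origin of these reads was not tested.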

How the results depend on the processing

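With 2 lines per group the exact permutation tests of shares, ratios and slopes could not pass a threshold. Of the settings tried for the shares of the 4 main places, ratios, slopes and counts of calls, 92 left the direction and the side of the threshold, or the count of calls, as it was, 6 moved a count and 4 turned a sign. For the shares of the smaller blocks and stretches, 174 settings left the difference within 1 SD between replicates of its main value. A further 16 moved it by more, and 2 turned its sign where the groups had not overlapped. Among the 92 are settings in which the groups came to overlap, with captured or capped fragments in the flanks and captured fragments far upstream, or came to separate, with a zone of 10 kb in the interval. With the purification method as a replicate block, the difference in the interval share was −0.67 percentage points from E98 minus E118 alone and 3.41 from E71 minus E117, and the log2 side ratio was −0.00664 from E98 minus E118. The side ratio was also −0.0358 with captured fragments in place of reads and −0.0442 up to 300 kb. With captured fragments, the difference in the share of chr4:120000000-130999999 was −0.0348 and in that of chr4:143000000-147999999 0.845 points. DESeq2 called 44 windows, 19 genes and, between +129 and +Bl6, 4 windows, where edgeR called 0, and the block gave 1 window between +129 and +Bl6 and 1 gene, Camta1, also called without +DBl6 replicate 2 (E98), with 1 gene. Under the block edgeR called 0 windows between +DBl6 and +Bl6. For +129 against +Bl6 the block is the MEF line. The cause of these changes was not tested.

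Leaving out each library in turn gave differences of −3.72 to −1.90 points far upstream, 0.40 to 1.39 in the upstream flank, 0.03 to 2.71 in the interval and 0.33 to 0.77 in the downstream flank. The side ratio ranged from 0.00223 to 0.17, the slope from −0.06 to −0.01, calls of windows stayed at 0 and those of genes ranged from 0 to 1. The interval difference rested on each library, at 0.0264 points without E71, 2.71 without E98, 0.671 without E117 and 2.07 without E118. Without E98 the upstream flank difference fell to 0.40 and the downstream to 0.336, and without E117 the latter was 0.33. Far upstream, where few fragments were captured repeatedly, the median standard error of a window's log2 difference was 3.07 against 1.04 in the interval.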

Other observations

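Some fragments of the interval had very different levels on the C57BL/6J and 129S5 alleles. Of 70 interval fragments with at least 1000 RPM in all 4 C57BL/6J libraries, 4 were more than 4-fold lower in both +129 libraries: chr4:150354343-150366543, chr4:150449637-150451560, chr4:150451561-150454426 and chr4:150462213-150467913, with C57BL/6J levels 15.1, 25.4, 29.5 and 31.5 times those of +129. The last of them overlaps Gm13090, which had 2295, 1553, 1423 and 1390 RPM per kb in the C57BL/6J libraries and 54.9 and 50.9 in +129. The fragment chr4:150679462-150680062 in Camta1 went the other way, with a mean of 2586 RPM in +129 and 63.4 in the C57BL/6J libraries. The 5 were chosen by these values, with the order in every library as part of the choice, and how they arise was not tested.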
